A study of Rattus norvegicus with 40 samples.

Results

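The antioxidant and xenobiotic response genes described here are 8 rat genes chosen by their Ensembl identifiers from the 32545 genes listed in each library. They comprise 3 targets of the transcription factor NRF2, namely Hmox1 (ENSRNOG00000014117), Nqo1 (ENSRNOG00000012772) and Gclc (ENSRNOG00000006302). They further comprise 3 antioxidant enzymes, Cat (ENSRNOG00000008364), Sod1 (ENSRNOG00000002115) and Sod2 (ENSRNOG00000019048), and 2 targets of the aryl hydrocarbon receptor (AHR), Cyp1a1 (ENSRNOG00000019500) and Cyp1b1 (ENSRNOG00000040287). The rule names them by identifier and uses no measured value, but the members were chosen with earlier results of these data known.

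NRF2 is held at a low level by KEAP1 and is released when electrophiles or oxidants modify KEAP1, after which it binds antioxidant response elements and switches on detoxifying and glutathione-forming enzymes. AHR is a ligand-activated factor that pairs with ARNT, binds xenobiotic response elements and switches on cytochromes P450 of the CYP1 family, for which Cyp1a1 is the standard marker. The adrenal cortex makes steroids with mitochondrial cytochromes P450 that leak oxidants, and CYP1B1 is known as a P450 of steroid-forming tissue that is present without any inducer.

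Adult Sprague Dawley rats, an outbred stock, of either sex gave the adrenal glands whose RNA was sequenced. The animals were controls or had been given a mixture of organophosphate esters, which serve as flame retardants and plasticizers, at a dose labelled 30x, 1000x or 30000x. The labels give neither the amount behind a multiple nor the vehicle, and all 8 groups carry no stated genetic change. Each group of male control, male 30x, male 1000x, male 30000x, female control, female 30x, female 1000x and female 30000x held 5 libraries, 40 in all. Levels are FPKM, fragments per kilobase of gene, scaled by the authors with library size factors, and 13527205 to 23838651 reads per library were recovered from them (median 17528215). Female 30000x replicate 5 stood apart, with the lowest size factor of the 40 (0.582), 11905 genes at 1 FPKM or more and 38.2% of its reads in the 10 genes with most reads. Female 30x replicate 1 was next to it, at a size factor of 0.709, 12136 genes and 37.8% of reads. The gene lists for adrenal cell types could not be matched to the identifiers, so the tissue label was not checked against its markers and the part of other cell types in the results was not tested. In whole glands, fewer cells of a type and less RNA per cell cannot be told apart.

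Promoter sequences, from 250 bases before to 50 bases after the annotated start (RefSeq, build GRCr8), were found for 6 of the 8 genes: Nqo1, Gclc, Cat, Sod1, Sod2 and Cyp1b1. Cyp1b1 and Sod2 are printed because their RNA varied together between libraries, and Nqo1 because it is the standard NRF2 target. Capitals mark matches to TGANNNNGC, a loose search pattern for the antioxidant response element core, or to GCGTG, the xenobiotic response element core. N is any base, and a match to the pattern need not be an antioxidant response element. Both were searched on both strands, so that a reverse match to GCGTG reads CACGC. The printed windows are chr6:21094315-21094614 on the forward strand, chr1:50050119-50050418 on the reverse strand and chr19:52220218-52220517 on the reverse strand, each written 5′ to 3′ along its gene.
Cyp1b1: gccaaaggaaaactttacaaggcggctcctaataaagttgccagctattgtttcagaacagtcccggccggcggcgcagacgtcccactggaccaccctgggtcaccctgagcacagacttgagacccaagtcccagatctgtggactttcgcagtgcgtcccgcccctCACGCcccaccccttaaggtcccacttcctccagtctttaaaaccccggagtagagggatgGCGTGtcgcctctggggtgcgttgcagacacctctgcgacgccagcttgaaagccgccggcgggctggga
Sod2: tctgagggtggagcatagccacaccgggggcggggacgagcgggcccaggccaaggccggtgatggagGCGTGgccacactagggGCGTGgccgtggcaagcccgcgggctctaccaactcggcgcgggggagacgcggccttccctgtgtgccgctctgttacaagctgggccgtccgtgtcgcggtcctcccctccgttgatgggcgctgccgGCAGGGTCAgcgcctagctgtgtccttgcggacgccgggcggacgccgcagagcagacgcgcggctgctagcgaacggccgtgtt
Nqo1: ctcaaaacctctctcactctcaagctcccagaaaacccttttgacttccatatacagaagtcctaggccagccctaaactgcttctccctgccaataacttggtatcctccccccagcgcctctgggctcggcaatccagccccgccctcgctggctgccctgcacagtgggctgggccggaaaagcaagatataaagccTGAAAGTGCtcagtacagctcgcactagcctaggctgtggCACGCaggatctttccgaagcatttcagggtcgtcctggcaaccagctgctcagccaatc
The Cyp1b1 window held the xenobiotic core at -81 on the reverse strand and at -20 on the gene's strand, counted to the first base of the match from the start of the gene. The Sod2 window held the xenobiotic core at -182 and -165 and a match to the antioxidant pattern, on the reverse strand, at -35. The Nqo1 window held a match to the antioxidant pattern, TGAAAGTGC, at -50 and the xenobiotic core, on the reverse strand, at -10. The Gclc window held the xenobiotic core at -93, and the windows of Cat and Sod1 held neither. Thus 2 of 6 windows held a match to the antioxidant pattern and 4 of 6 the xenobiotic core. This compares with 40.5% and 29.7% of 33469 promoters of the same length, which were not matched for base content. G and C made up from 56.3% (Nqo1) to 76.7% (Gclc) of the 6 windows, and the counts were not tested. No match overlapped another.

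Levels per length spanned a wide range. Cyp1b1 was the highest of the 8 genes, with a mean of 1344 FPKM over 40 libraries, which placed it at rank 27 of all genes, and it took 0.301% to 1.33% of the reads of a library (median 0.699%). Sod2, the mitochondrial superoxide dismutase, averaged 625 FPKM, and Sod1, the cytosolic form, averaged 434.5 FPKM. Gclc, the catalytic subunit of the enzyme that starts glutathione synthesis, averaged 90.1 FPKM and Cat, which breaks down hydrogen peroxide, averaged 68.4 FPKM. Hmox1, the inducible haem oxygenase, averaged 28.5 FPKM and Nqo1, a quinone reductase, averaged 9.82 FPKM. The same order held library by library for most neighbours: Cyp1b1 exceeded Sod2 in 40 of 40 libraries, Sod2 exceeded Sod1 in 36, Sod1 exceeded Gclc in 40, Gclc exceeded Cat in 33, Cat exceeded Hmox1 in 40 and Hmox1 exceeded Nqo1 in 39. Gclc and Cat thus changed places in more libraries than any other neighbours, though not in most of them, followed by Sod2 and Sod1.

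**Figure D1:**
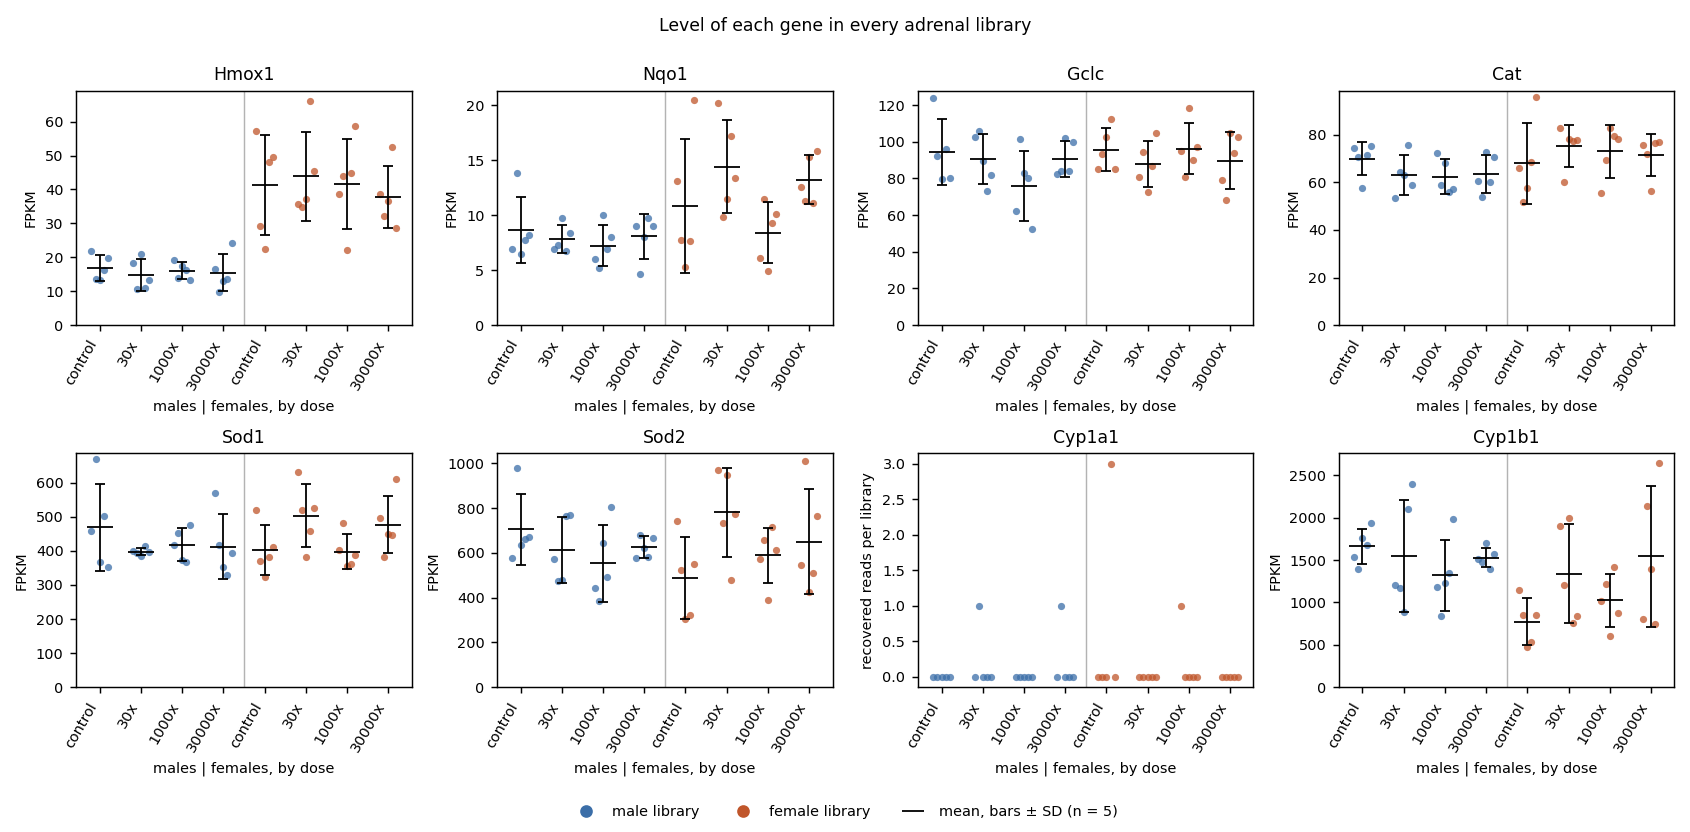
Level of each gene in every library, by sex and dose. The vertical axis is FPKM (recovered reads per library for Cyp1a1), points are single libraries, and the bars give the mean ± SD of 5 libraries. Hmox1 lay at 22.02 to 66.2 FPKM in female libraries and at 9.83 to 24.1 FPKM in male libraries, Cyp1b1 was lowest in female controls, and Cyp1a1 had reads in 4 libraries.

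Cyp1a1, the most inducible AHR target, was close to absent at every dose in both sexes. Over all 40 libraries it had 6 of 708048040 recovered reads, and 36 libraries had none. Male 30x replicate 2, male 30000x replicate 2 and female 1000x replicate 1 had 1 read each, at 0.0232, 0.0235 and 0.0232 FPKM. Female control replicate 4 had 3 reads, at 0.0550 FPKM, the highest value of the gene and one from an undosed library. A library with 0 reads allows up to 3, equal to 0.0426 to 0.113 FPKM depending on its size factor, by counting error only. Each of the 4 libraries with a read was at or under its own floor of 3 reads, and no difference between doses was detectable at this depth. Cyp1a1 did not pass the filter on low values and entered no test. In each of the 36 libraries without a Cyp1a1 read, Cyp1b1 was at least 7450-fold higher than the Cyp1a1 floor of 3 reads.

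The first question was whether the mixture moved these genes against the controls of the same sex. No member passed in any of the 6 comparisons or in the trends over dose rank, on log2(FPKM + 1) values with limma and a Benjamini-Hochberg adjusted p under 0.05 over all genes. In males this was 0 of 7 tested members at 30x, 1000x and 30000x, where 1 of 13110 genes passed in each comparison (0.00763% of genes). In females it was 0 of 7, where 0 of 13251 genes passed in each comparison (0% of genes). Few genes of any kind passed, so these counts say little about the members themselves. At an unadjusted limma p under 0.05, 0, 1 and 0 members stood in males at 30x, 1000x and 30000x, where 1248, 946 and 771 of all genes did, and 2, 0 and 1 members stood in females, where 1053, 221 and 1309 did. On recovered reads, limma's voom likewise called 0 members and 1, 1 and 0 genes in males and 0 genes at each dose in females. The 3 comparisons of a sex share its 5 control libraries and are not independent of each other.

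**Figure D2:**
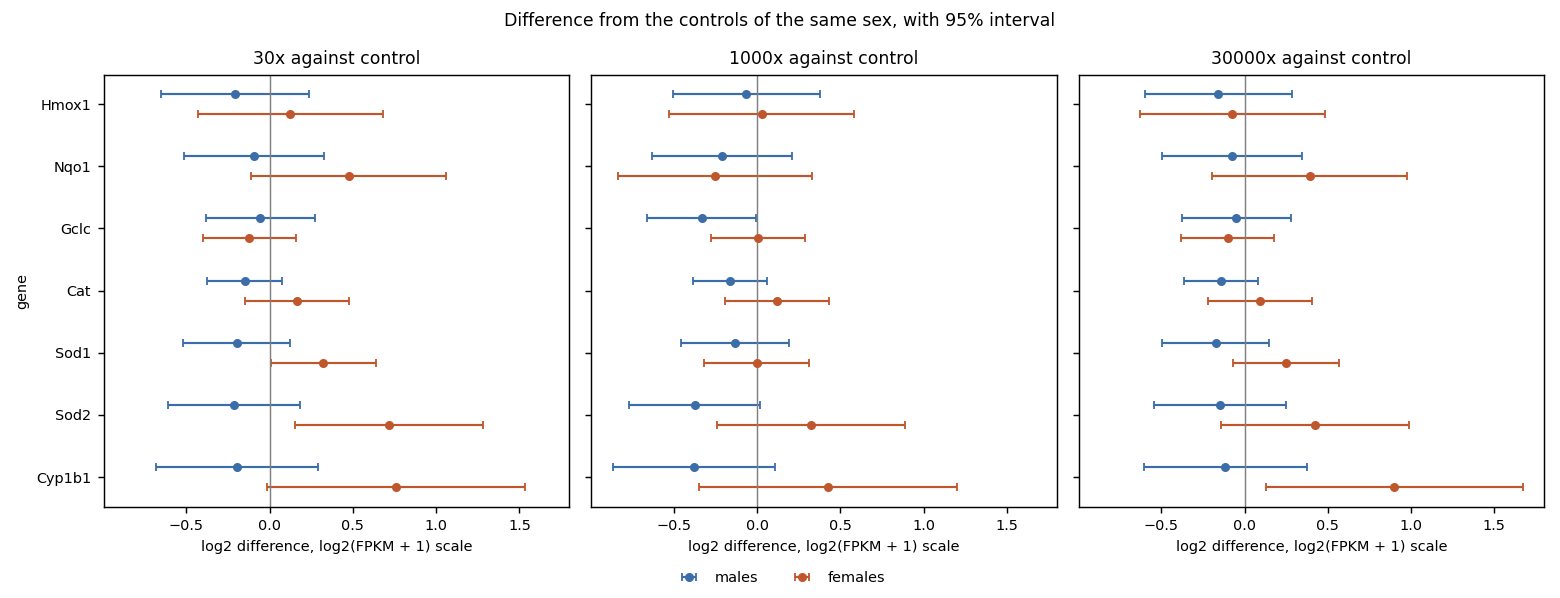
Difference of each dose from the controls of the same sex for the 7 tested genes. The horizontal axis is the log2 difference on the log2(FPKM + 1) scale, points are limma estimates, bars are 95% intervals, blue is males and orange is females. The male points lie left of 0, and the female points of Sod2 and Cyp1b1 lie right of it with wide intervals.

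Among the NRF2 targets, Hmox1 was near its control level in males at every dose. Its values were 21.9, 13.7, 13.1, 16.2 and 19.8 FPKM in male controls and 18.2, 10.5, 21.02, 10.9 and 13.2 FPKM in male 30x. They were 19.2, 13.9, 17.5, 16.2 and 13.2 FPKM in male 1000x and 16.5, 9.83, 13.1, 13.7 and 24.1 FPKM in male 30000x. The 4 male groups overlapped throughout, and the only value above all controls was the last of the 30000x group. At 30000x the mean was 15.4 ± 5.39 FPKM against 16.9 ± 3.82 FPKM in controls (SD, n = 5 each), a log2 difference of -0.16 with a 95% interval of -0.60 to 0.28.

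In females Hmox1 was higher at every dose than in males but no dose differed from the female controls beyond the spread. The libraries had 57.3, 29.1, 22.5, 48.1 and 49.5 FPKM in female controls and 35.7, 34.8, 37.1, 66.2 and 45.5 FPKM in female 30x. They had 38.5, 43.8, 22.02, 44.9 and 58.8 FPKM in female 1000x and 38.7, 32.04, 36.7, 52.5 and 28.7 FPKM in female 30000x. Values as low as 22.5 FPKM and as high as 57.3 FPKM occurred without the mixture, close to the lowest and highest dosed libraries (22.02 and 66.2 FPKM). The log2 difference was 0.12 at 30x, 0.03 at 1000x and -0.07 at 30000x, each with an SE of 0.27, and the 95% interval at 30000x ran from -0.63 to 0.48.

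Nqo1 had the widest relative spread of the NRF2 targets. It had 6.91, 13.9, 6.43, 7.74 and 8.23 FPKM in male controls, and the means at 30x, 1000x and 30000x were 7.81 ± 1.27, 7.22 ± 1.89 and 8.07 ± 2.04 FPKM (SD, n = 5 each). Male control replicate 2 alone lay far above the other controls, and no dosed male library exceeded it. In females Nqo1 had 13.1, 7.72, 5.32, 7.60 and 20.5 FPKM in controls and 20.2, 9.87, 11.4, 17.2 and 13.4 FPKM at 30x. It had 6.11, 11.4, 4.87, 9.32 and 10.1 FPKM at 1000x and 12.5, 11.3, 15.3, 11.1 and 15.8 FPKM at 30000x. All values at 30x and 30000x fell inside the range of the female controls. The log2 difference was 0.48 at 30x (SE 0.28), -0.25 at 1000x (SE 0.28) and 0.39 at 30000x (SE 0.28), with limma adjusted p of 0.66, 1 and 0.60, and the order of the doses was not monotonic. Without female 30x replicate 1 the value at 30x was 0.35.

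Gclc gave the lowest male group mean at the middle dose. It had 124, 92.4, 79.8, 96.2 and 80.3 FPKM in male controls and 62.2, 101, 83.2, 80.1 and 52.3 FPKM at 1000x. Replicates 1 and 5 at 1000x lay below every control and the other 3 lay within their range. The log2 difference was -0.33 (SE 0.16, limma adjusted p = 0.68), and at 30x and 30000x it was -0.06 and -0.05. In females the means were 95.7 ± 11.8 FPKM in controls and 87.9 ± 12.4, 96.3 ± 13.9 and 89.7 ± 15.7 FPKM at the rising doses (SD, n = 5 each), with log2 differences of -0.12, 0.01 and -0.10. Over the 3 NRF2 targets and 6 dose comparisons, the highest upper bound of a 95% interval was 1.06 on the log2 scale, for Nqo1 in female 30x.

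The antioxidant enzymes lay close to control in males. Cat had means of 70.0 ± 7.08 FPKM in male controls and 63.1 ± 8.40, 62.4 ± 7.31 and 63.5 ± 7.85 FPKM at the rising doses (SD, n = 5 each), the smallest within-group spread of the members, with log2 differences of -0.15, -0.16 and -0.14 (SE 0.11 each). Sod1 had 469 ± 127 FPKM in male controls and 398 ± 10.9, 418 ± 47.9 and 412 ± 94.3 FPKM at the doses (SD, n = 5 each). The 5 male 30x libraries of Sod1 were tightly grouped, at 399, 393, 385, 414 and 397 FPKM, whereas male controls ran from 352 to 668 FPKM. Sod2 had 577, 979, 637, 661 and 671 FPKM in male controls and 443, 383, 646, 491 and 804 FPKM at 1000x. Its log2 difference there was -0.38 (SE 0.19, limma adjusted p = 0.71), with 3 of 5 dosed libraries below all controls, and it was -0.21 at 30x and -0.15 at 30000x.

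In females Sod2 had the largest difference of this group at the lowest dose. It had 743, 522, 302, 322 and 552 FPKM in female controls and 972, 732, 946, 479 and 773 FPKM at 30x. Replicates 1, 3 and 5 at 30x were above every control, and replicates 2 and 4 were within their range. The means were 488 ± 182 and 780.3 ± 198 FPKM (SD, n = 5 each), a log2 difference of 0.72 (SE 0.27, 95% interval 0.15 to 1.28), which did not pass after adjustment (limma adjusted p = 0.61) and was 0.63 without female 30x replicate 1. At 1000x the difference was 0.32 (SE 0.27), where all 5 libraries lay within the control range, and at 30000x 0.42 (SE 0.27), or 0.35 without female 30000x replicate 5.

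Sod1 in females followed with smaller values. Its controls had 521, 369, 324, 383 and 410.1 FPKM, and the 30x libraries had 631, 521, 381, 457 and 526 FPKM. The log2 difference at 30x was 0.32 (SE 0.15, limma adjusted p = 0.62), or 0.24 without female 30x replicate 1, with 2 of 5 libraries above the highest control, and it was -0.0039 at 1000x and 0.25 at 30000x. Cat in females had means of 68.1 ± 17.1 FPKM in controls and 75.2 ± 8.78, 73.1 ± 11.1 and 71.5 ± 8.77 FPKM at the doses (SD, n = 5 each), and every dosed library lay within the range of the controls.

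The estimates for Cyp1b1, a P450 that oxidizes steroids and aromatic hydrocarbons, had opposite signs in the sexes, and none passed. Male libraries had 1542, 1396, 1762, 1682 and 1941 FPKM in controls and 1204, 1166, 882, 2107 and 2403 FPKM at 30x. They had 1183, 843, 1233, 1352 and 1988 FPKM at 1000x and 1517, 1473, 1701, 1392 and 1568 FPKM at 30000x. At 30x the male libraries lay on both sides of the controls, 2 above and 3 below, and at 1000x 4 lay below and 1 above, while at 30000x 4 of 5 lay within the control range. The log2 differences were -0.20, -0.38 and -0.12 (SE 0.23 each), with 95% intervals that all include 0. Leaving out a library moved the value at 30x to between -0.38 and -0.02, the latter without replicate 3 of that group, and the value closest to 0 at 1000x was -0.16, with quantile normalization.

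Female libraries had 1151, 856, 470, 532 and 852 FPKM of Cyp1b1 in controls and 1907, 1204, 1996, 758 and 835 FPKM at 30x. They had 1013, 1220, 601, 1415 and 875 FPKM at 1000x and 804, 2135, 1392, 750.1 and 2651 FPKM at 30000x. At 30x and at 30000x 3 of 5 libraries lay above every control and the other 2 within their range, so the groups overlapped. The mean at 30000x was 1546 ± 833 FPKM against 772 ± 277 FPKM in controls (SD, n = 5 each), a ratio of means of 2.00. The log2 difference was 0.76 at 30x (SE 0.37), 0.43 at 1000x and 0.90 at 30000x (SE 0.37, 95% interval 0.13 to 1.67), with limma adjusted p of 0.62, 1 and 0.48. Without female 30000x replicate 5, the highest library, the difference at 30000x was 0.66 (SE 0.37, limma adjusted p = 0.77). Without female 30x replicate 1 the difference at 30x was 0.60. The slope over dose rank in females was 0.24 per rank (SE 0.12, limma adjusted p = 0.74), or 0.17 without that library.

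The share of reads taken by the 10 genes with most reads, which do not include Cyp1b1, differed between the female groups without following the order of the doses. It was 25.7 ± 3.10% in female controls and 31.5 ± 4.43%, 28.2 ± 2.54% and 30.6 ± 5.03% at the rising doses (SD, n = 5 each), and 19% to 20.7% on average in the male groups. Scaling each library to its own total in place of the size factor shifted the median log2 difference of all genes by -0.20 in female 30x and by -0.17 in female 30000x. On that scale Cyp1b1 differed by 0.52 at 30x and 0.69 at 30000x, and Sod2 by 0.47 and 0.22. At the same doses Sod1 differed by 0.08 and 0.04, Nqo1 by 0.26 and 0.20 and Gclc by -0.36 and -0.31, and none passed. Within groups of the same sex and dose, deviations of Cyp1b1 had an r of 0.524 with this share (rho 0.450, permutation p = 0.0076 and 0.013, adjusted p = 0.023 and 0.054 over 21 relations of members with library measures), or 0.398 without the 2 farthest libraries. Those of Sod2 had an r of 0.369 (rho 0.399, permutation p = 0.053 and 0.025, adjusted p = 0.11 and 0.054). Whether the share accounts for any difference between dose groups was not tested.

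In males, the estimates of all 7 tested members were below 0 at each dose, though none passed. The median log2 difference of the 7 was -0.20, -0.21 and -0.14 at the rising doses, beside medians near 0 over all genes (0.00020, -0.0053 and -0.0067). The shared controls tie the 3 values together, and male control replicate 2 was the highest control for Nqo1, Sod1 and Sod2. Under scaling to library totals Hmox1 at 1000x and Nqo1 and Gclc at 30000x turned to 0.03, 0.0031 and 0.04, and with quantile normalization Gclc at 30x and 30000x and Cyp1b1 at 30000x turned to 0.03, 0.07 and 0.16. For the trends over dose rank, 0 of 7 members passed in males, where 1 of 13110 genes did (0.00763% of genes), and 0 of 7 passed in females, where 0 of 13251 genes did (0% of genes). At an unadjusted limma p under 0.05 the trends held 0 members in each sex and 573 and 840 genes, and voom called 0 genes in both.

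Whether a dose acted differently in the sexes was tested as the interaction of sex and dose over all 40 libraries. At 30x, 1000x and 30000x, 0 of 7 members and 0 of 13926 genes passed (0% of genes, limma), while 3, 1 and 1 members and 1828, 651 and 1781 genes had an unadjusted limma p under 0.05, and voom called 0 genes. The Cyp1b1 difference in females exceeded that in males by 0.95 at 30x, 0.81 at 1000x and 1.01 at 30000x (SE 0.45 each), with limma adjusted p of 0.37, 0.99 and 0.36. For Sod2 it was 0.93, 0.70 and 0.57 (SE 0.34 each), with limma adjusted p of 0.28, 0.99 and 0.45. For Sod1 it was 0.52, 0.13 and 0.42 (SE 0.22 each), where the value at 1000x turned to -0.03 and -0.07 with quantile normalization and scaling to totals. With scaling to totals, Sod1 was 0.23 at 30x and 0.13 at 30000x, Sod2 was 0.28 at 30000x and Cyp1b1 was 0.67, 0.61 and 0.72 at the 3 doses. The lowest Cyp1b1 value at 30000x over the alternatives was 0.45, with quantile normalization, and without female 30000x replicate 5 it was 0.78. Without female 30x replicate 1 the values at 30x were 0.80 for Cyp1b1, 0.84 for Sod2 and 0.44 for Sod1.

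Some members passed between the sexes, whereas none had passed between doses. The comparison over the 4 dose groups sets 20 libraries against 20, and a dose comparison 5 against 5. Their calls therefore differ in the size of change they can detect. The comparison of the sexes in controls also sets 5 against 5. Its spread was estimated over all 40 libraries, and that of a dose comparison over 20. In controls, 2 of 7 members passed, Hmox1 higher and Cyp1b1 lower in females, where 728 of 13926 genes passed (5.23% of genes, limma). Leaving out a library moved that count of genes to between 336 and 1074, and it was 1508 with library weights and 435 with the compared groups alone. Over the mean of the 4 dose groups, 3 of 7 members passed, Hmox1, Nqo1 and Cyp1b1, where 4103 of 13926 genes did (29.5% of genes). Read against that share, 3 of 7 is no particular feature of the members. Of the 4103 genes 1930 were higher in females and 2173 lower, a split that became 601 and 4856 with scaling to library totals.

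Hmox1 had the largest difference between the sexes over the dose groups. In controls it was at 41.3 ± 14.8 FPKM in females and 16.9 ± 3.82 FPKM in males (SD, n = 5 each), a log2 difference of 1.18 (SE 0.25, limma adjusted p = 0.0040). Over the 4 dose groups the difference was 1.31 (SE 0.12, 95% interval 1.05 to 1.56, limma adjusted p = 1.25e-09). In each of the 4 dose groups the lowest female library lay above the highest male library, a separation that 17 of the 13926 genes showed (0.122%). Across dose groups the ranges touched, since the lowest female library had 22.02 FPKM and the highest male library 24.1 FPKM. The difference was 1.15 with scaling to library totals, where the median of all genes shifted by -0.14, and 1.33 without female 30000x replicate 5.

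Nqo1, the other NRF2 target that passed, was higher in females over the 4 dose groups by 0.45 on the log2 scale (SE 0.13, limma adjusted p = 0.0059), or by 0.30 with scaling to totals (limma adjusted p = 0.034), but by 0.21 in controls alone (SE 0.25, limma adjusted p = 0.70). Female libraries ran from 4.87 to 20.5 FPKM and male libraries from 4.598 to 13.9 FPKM, so the sexes overlapped widely over all doses together. In 2 of the 4 dose groups every female library lay above every male library. At 30x the lowest female had 9.868 and the highest male 9.78 FPKM, and at 30000x 11.13 and 9.733 FPKM. The share of all genes with such a separation in 2 dose groups was not counted. Gclc, the third NRF2 target, differed by 0.03 in controls and 0.08 over the dose groups (SE 0.07), the latter turning to -0.08 with scaling to totals. The 3 NRF2 targets thus did not share a sex difference that passed the test in both comparisons.

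Cyp1b1 was lower in females in controls and over the mean of the 4 dose groups. In controls it averaged 772 ± 277 FPKM in females and 1664 ± 208 FPKM in males (SD, n = 5 each), and every female library was below every male library. Only 1 of the 4 dose groups, the controls, showed this separation, and the share of all genes that showed it in controls was not counted. The log2 difference in controls was -1.18 (SE 0.32, limma adjusted p = 0.024). The call was lost on leaving out male control replicate 4 (adjusted p = 0.053), male control replicate 5 (adjusted p = 0.052), female control replicate 3 (adjusted p = 0.095) or female control replicate 4 (adjusted p = 0.074) in limma, with log2 differences of -1.17, -1.12, -1.02 and -1.06. Over the 4 dose groups the difference was -0.48 (SE 0.16, limma adjusted p = 0.021), with female libraries from 470 to 2651 FPKM and male libraries from 843 to 2403 FPKM. It was -0.65 with scaling to library totals and -0.72 with quantile normalization. Group means in females and males were 1340 and 1552 FPKM at 30x, 1025 and 1320 FPKM at 1000x, and 1546 and 1530 FPKM at 30000x. At 30000x the female mean in FPKM was thus not lower, with replicate 5 at 2651 FPKM in it. The female median there was lower, at 1392 FPKM against 1517 FPKM in males.

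Of the antioxidant enzymes, none passed between the sexes. Sod2 in controls differed by -0.59 (SE 0.24, limma adjusted p = 0.15) and over the dose groups by -0.04 (SE 0.12), or -0.20 with scaling to totals (limma adjusted p = 0.11). Cat differed by -0.07 in controls and 0.14 over the dose groups (SE 0.07, limma adjusted p = 0.098), the first turning to 0.05 with quantile normalization and the second to -0.02 with scaling to totals. Sod1 differed by -0.20 in controls and 0.07 over the dose groups (SE 0.08), the latter turning to -0.04 and -0.10 under the same alternatives. An unadjusted limma p under 0.05 was reached by 3 of 7 members in controls, beside 19.8% of all genes, and by 4 of 7 over the dose groups, beside 39.7%.

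**Figure D3:**
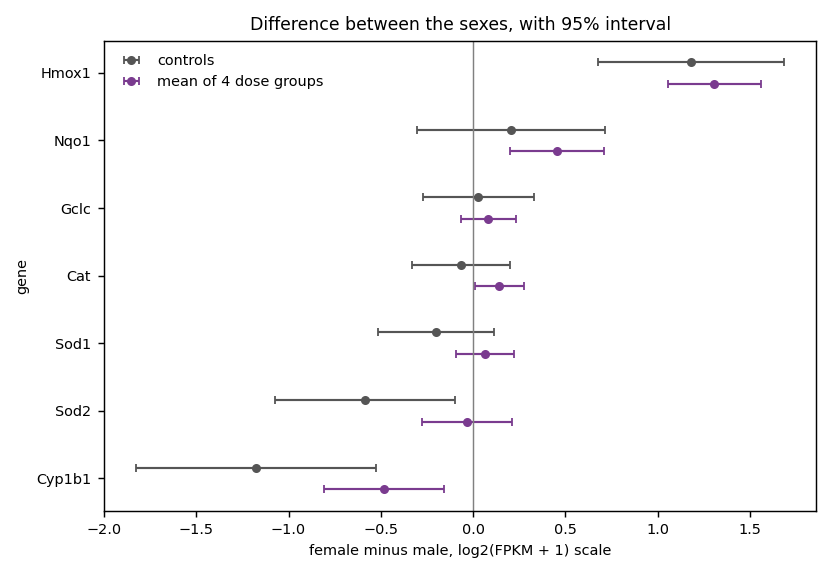
Difference between the sexes for the 7 tested genes, in controls and over the mean of the 4 dose groups. The horizontal axis is female minus male on the log2(FPKM + 1) scale, points are limma estimates and bars are 95% intervals. Hmox1 lies at 1.18 and 1.31, Cyp1b1 at -1.18 and -0.48.

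Within groups of the same sex and dose, some members varied together. Deviations of log2(FPKM + 1) from the group mean were correlated for 21 pairs of members over 40 libraries, with p from 100000 permutations within groups. Sod2 and Cyp1b1 had the closest relation, with Pearson's r of 0.779 and Spearman's rho of 0.765 (p = 1.00e-05 for each, the smallest these permutations can give, adjusted p = 0.00021 over 21 pairs). It was 0.751 without the 2 libraries farthest from the median in Sod2, 0.689 in the 20 male and 0.819 in the 20 female libraries, and 0.676 with scaling to library totals. Only 77 of 13925 genes (0.553%) had an r with Cyp1b1 at least as high as that of Sod2.

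Gclc varied against both of them. Its r was -0.579 with Sod2 (rho -0.532, permutation p = 0.00083 and 0.0025, adjusted p = 0.0087 and 0.024) and -0.507 with Cyp1b1 (rho -0.516, permutation p = 0.0030 and 0.0034, adjusted p = 0.021 and 0.024). Without the 2 farthest libraries these were -0.502 and -0.435. An r with Cyp1b1 as low as that of Gclc was found for 898 of 13925 genes (6.45%). The NRF2 targets Hmox1 and Nqo1 had an r of 0.480 (rho 0.442, permutation p = 0.011 and 0.014, adjusted p = 0.058 and 0.073), or 0.340 without the 2 farthest libraries, and Hmox1 and Gclc had an r of 0.017. In all, 3 of 21 pairs passed, and none of them joined members of the same set.

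**Figure D4:**
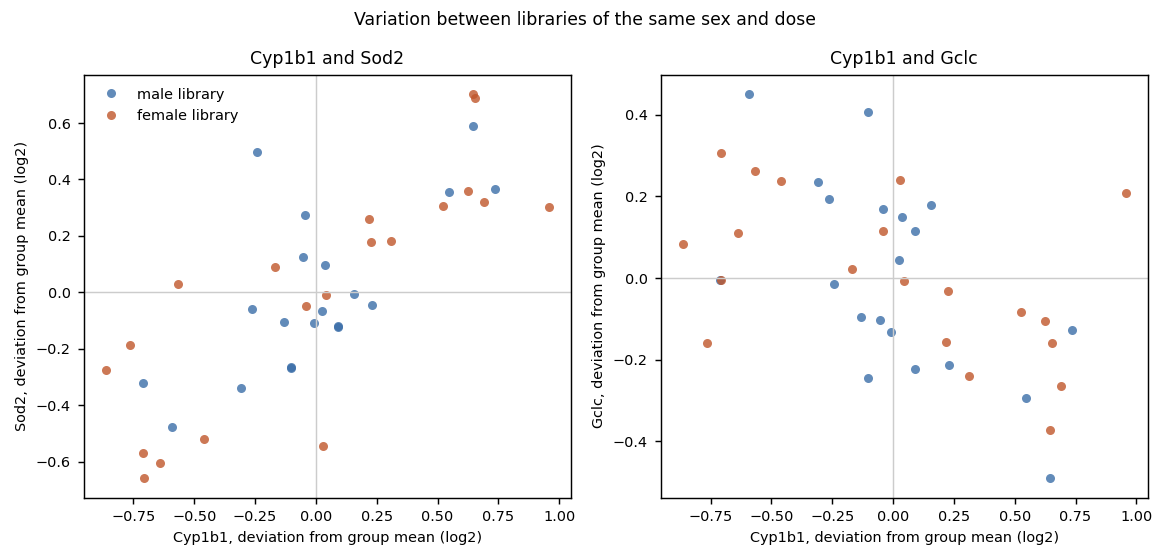
Deviation of each library from the mean of its sex and dose group, for Cyp1b1 against Sod2 and against Gclc. Both axes are log2(FPKM + 1) differences and each point is a library. Sod2 follows Cyp1b1 (r = 0.779) and Gclc runs against it (r = -0.507).

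Several members also moved with measures of the library, and the part of these in the relations between members was not tested. The size factor divides the reads in every FPKM value, and the genes at 1 FPKM or more are counted on those values. Members are thus tied to both measures by construction, and the permutation p-values cannot separate a relation from this scaling. Cyp1b1 deviations had an r of -0.625 with the log2 size factor (rho -0.588, permutation p = 0.00024 and 0.00030, adjusted p = 0.0025 and 0.0032 over 21 relations), or -0.551 without the 2 farthest libraries. For Sod2 the r with the size factor was -0.367 (rho -0.393, permutation p = 0.039 and 0.019, adjusted p = 0.090 and 0.054). With the number of genes at 1 FPKM or more, Sod1 had an r of -0.620 (rho -0.522), Sod2 of -0.558 (rho -0.591) and Cyp1b1 of -0.524 (rho -0.493), with permutation p of 0.00021, 0.0014 and 0.0057 for r and 0.0019, 0.00026 and 0.0057 for rho. Nqo1 had an r of 0.460 with the share of the 10 genes with most reads (rho 0.401, permutation p = 0.0047 and 0.023, adjusted p = 0.020 and 0.054) and of -0.447 with the number of genes (rho -0.411, permutation p = 0.012 and 0.023, adjusted p = 0.032 and 0.054). Sod1 had an r of 0.484 with that share (rho 0.404, permutation p = 0.0050 and 0.023, adjusted p = 0.020 and 0.054). Gclc, Hmox1 and Cat passed with none of the 3 measures, with adjusted p of r from 0.27 to 0.97. The first principal component of the same deviations, with 13.2% of the variance of 13900 genes, had an r of 0.726 with Cyp1b1, 0.585 with Sod2, 0.526 with Sod1, 0.456 with Nqo1, 0.224 with Cat, -0.167 with Gclc and -0.045 with Hmox1, given as a description. Its r with the log10 size factor was -0.48.

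Spread within groups differed between members. The mean coefficient of variation was 32.3% for Cyp1b1, 29.8% for Nqo1, 28.3% for Hmox1, 25.6% for Sod2, 16.4% for Sod1, 16.1% for Gclc and 13.96% for Cat. Cyp1b1 was thus more variable than 90.5% of genes that average 5 FPKM or more, and Cat more variable than 37.9% of them. By pattern over the 40 libraries, among 8744 such genes, the most similar to Cyp1b1, as a description, was ENSRNOG00000051952 (r = 0.936, 132.7 FPKM). For Nqo1 it was ENSRNOG00000009974 (r = 0.717, 24.1 FPKM), and for Hmox1 it was ENSRNOG00000024036 (r = 0.691, 23.5 FPKM).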

How the data were processed

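The submitters' processing notes name HISAT2 2.0.5 (an aligner) and featureCounts 1.5.0-p3 (a read counter). Genome build, annotation and strand setting: not given in the sources used here. Per library, the authors deposited FPKM for each gene in 1 table. A gene length was accepted only if all deposited FPKM values above 0 were whole multiples of 1 read, within 0.05 of a read. Such a length was found for all 20717 genes found in 3 or more libraries, with 0 left out. The share of 100.0% of their 680244 values is set by that rule. Each library's scale was its median-of-ratios size factor (0.582 to 1.545), so the deposited FPKM are not scaled by each library's own total. Another 2323 genes in fewer libraries were not recovered, and 9505 genes were at 0 throughout. Because the files hold FPKM, the count test was run only as an alternative, as voom on the recovered reads.

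The labels set the 8 groups of sex and dose, call the libraries biological replicates and name no animals, so p-values measure the spread between these samples. Values were tested as log2(FPKM + 1), which understates changes of low genes, with limma 3.58.1 in R 4.3.3, a trended prior, two-sided, and Benjamini-Hochberg adjustment over all genes tested. A gene was tested if 5 or more libraries of the fit had it at 1 FPKM or more. Dose contrasts against same-sex controls came from a fit of 20 libraries. The sexes and the interactions were fitted over all 40. Correlations used 100000 permutations within groups (scipy 1.17.1 and numpy 2.4.6 in Python 3.11.15, with pandas 2.3.3; figures with matplotlib 3.10.9). Only the contrasts of male 30000x with male controls and of female with male controls were tried on simulated data with known changes. The other contrasts were not simulated. Alternatives were a pseudocount of 0.1, no filter (a value in at least 3 libraries), a filter on mean level (5 FPKM), quantile normalization, scaling to library totals, library weights, a replicate block, the compared groups alone, voom, and each library left out in turn. The p-values of the correlations, the correlations with library measures and the fits without female 30000x replicate 5 outside its own comparison were added after seeing the data. Floors of 3 reads cover counting error only.

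All 8 members are named throughout. The members and lists were chosen with earlier results of these data known. Their symbols come from the rule that lists them, since 0 identifiers matched the 47357 genes of the RefSeq table. The lists of further NRF2, AHR, antioxidant and xenobiotic genes and of cell type markers were therefore not tested here. For Hmox1, Nqo1 and Cyp1b1 the gene with the highest correlation of deviations is named, and for Cyp1a1 none, as it has too few reads.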

Additional observations from a re-analysis of the deposited data

Results flagged for a closer look

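In each of 64 groups of 5 values, the gap between the highest or lowest library and the next was set against the range of the group. In 9 groups it was above Dixon's critical value of 0.71, which chance passes in about 1 in 20 groups of continuous values. The 9 include Cyp1a1 groups with a single library with reads, which pass by construction. The 64 include Cyp1a1 groups at 0 throughout, which cannot pass. The count of 9 of 64 can therefore not be set against 1 in 20. Male control replicate 2 was far above the other male controls in Nqo1, at 13.86 FPKM against 6.431 to 8.232 FPKM, and in Sod2, at 979 FPKM against 576.8 to 671 FPKM. These controls enter every male dose comparison. Without male control replicate 2 the log2 difference of Nqo1 at male 30x was 0.07.

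Cat had a low library in 3 groups. Male control replicate 3 had 57.77 FPKM against 70.88 to 75.17 FPKM in the others, female 30x replicate 2 had 60.04 FPKM against 77.51 to 82.82 FPKM, and female 30000x replicate 3 had 56.24 FPKM against 71.86 to 76.92 FPKM.

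In Cyp1a1, 4 groups held a single library with reads. Male 30x replicate 2 (0.02316 FPKM), male 30000x replicate 2 (0.02352 FPKM) and female 1000x replicate 1 (0.02316 FPKM) each had 1 read, and female control replicate 4 (0.05504 FPKM) had 3 reads. Any library with a read is picked out when the other 4 have none, so these are values at the limit of detection.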

How the results depend on the processing

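Over 66 member results and 1574 refits, 1507 kept their direction and their side of the threshold, 61 changed sign, 4 lost a call and 2 gained one. The 66 are the dose and sex comparisons of the tested members, the female trend of Cyp1b1 and the interactions of Sod1, Sod2 and Cyp1b1. Other trends and interactions of members are not in these counts. No called value changed sign, and the largest value that did was 0.2058 in size. With quantile normalization the log2 difference turned to 0.0277 for Gclc in male 30x, 0.0663 for Gclc and 0.164 for Cyp1b1 in male 30000x, -0.0643 for Gclc in female 1000x and -0.0400 for Cat in female 30000x. It turned to 0.0525 for Cat between the sexes in controls, -0.0380 for Sod1 between the sexes over all groups and -0.0268 for the Sod1 interaction at 1000x. With scaling to library totals it turned to 0.0272 for Hmox1 in male 1000x, 0.00308 for Nqo1 and 0.0376 for Gclc in male 30000x, -0.110 for Hmox1 and -0.0722 for Cat in female 30x, and -0.0741 for Hmox1 and -0.0968 for Gclc in female 1000x. It turned to -0.110 for Cat in female 30000x, to -0.0834 for Gclc, -0.0232 for Cat and -0.102 for Sod1 between the sexes over all groups, and to -0.0708 for the Sod1 interaction at 1000x. With library weights it turned to 0.00822 (male 30x) and 0.0457 (male 30000x) for Nqo1, -0.0397 for Gclc and 0.0627 for Sod1 in female 1000x, and 0.128 for Hmox1 in female 30000x. The causes were not tested.

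The single gene called at male 30x was lost (0 genes) with quantile normalization and scaling to totals. At male 1000x 0 genes were called with these settings, with library weights and with the compared groups alone. At male 30000x 0 were called with no filter, the filter on mean level, library weights, the replicate block, voom and the compared groups alone. For the male trend 0 were called with a pseudocount of 0.1, no filter, the filter on mean level, quantile normalization, library weights, the replicate block and voom. In controls the sexes differed in 1508 genes with library weights and 435 with the compared groups alone. The replicate block gave 1 gene in the 30x interaction and changed no member's call. Replicate numbers do not pair the samples: of 140 pairs with the same number 28 had a correlation of deviations over 0.1, the median was 0.00284 against 5.62e-05 for other numbers, and 6 of 40 libraries correlated best with their own number.

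Leaving out each library in turn gave 1 to 3 genes at male 30x, 0 to 1 at male 1000x, male 30000x, each female dose, both trends and the 30000x interaction, 0 to 48 in the 30x interaction, and 336 to 1074 between the sexes in controls, with 1 to 2 members called. Values that changed sign ran from -0.1756 to 0.07431 (Nqo1) and -0.1161 to 0.04416 (Gclc) in male 30x, -0.1449 to 0.02969 (Hmox1) and -0.2277 to 0.003153 (Sod1) in male 1000x, and -0.1574 to 0.09251 (Nqo1) and -0.1057 to 0.05171 (Gclc) in male 30000x. For Hmox1 they ran from -0.06779 to 0.2598, -0.1651 to 0.232 and -0.2663 to 0.06126 at the female doses, and in female 1000x from -0.07126 to 0.06538 for Gclc and -0.07594 to 0.09427 for Sod1. Between the sexes in controls they ran from -0.04378 to 0.3975 (Nqo1), -0.03126 to 0.1298 (Gclc) and -0.1961 to 0.02331 (Cat), over all groups from -0.07967 to 0.005526 (Sod2), and for the Sod1 interaction at 1000x from -0.007045 to 0.2284. Cat over all groups gained a call without female control replicate 2 or female 1000x replicate 1 (limma adjusted p = 0.0492 and 0.0460). Depth limits Cyp1a1, with 6 reads in all.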
